A study of Mus musculus with 18 samples.

Results

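The 8 genes Gad1, Gad2, Slc32a1, Slc6a11, Abat, Aldh5a1, Gabbr1 and Gabbr2 cover the synthesis of GABA, its loading into vesicles, its uptake and breakdown, and both subunits of the GABA-B receptor. They were chosen by symbol, as the 8 rows whose Ensembl identifiers map to these names among the 55421 genes of the count table. All 8 passed the filter on low counts, with 996 or more reads in every library. The libraries were made from bulk striatum of 18 mice aged 12 to 14 months, whose strain the labels give as C57BL/6 and the methods as C57BL/6J. There were 5 wild-type (WT) mice, 5 zQ175 mice, 3 CK2a'(+/-) mice and 5 zQ175:CK2a'(+/-) mice. The zQ175 allele is a knock-in of an expanded CAG repeat in huntingtin, carried on 1 chromosome, and models Huntington's disease (HD). CK2a'(+/-) mice lack 1 copy of Csnk2a2, the gene of the kinase subunit CK2a'. The zQ175:CK2a'(+/-) mice carry both changes, and the WT mice carry neither.

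GABA is the main inhibitory transmitter of the brain, and most striatal neurons are projection neurons that release it. Glutamate decarboxylases make it from glutamate, a vesicular transporter packs it, plasma membrane transporters of neurons and astrocytes clear it, and mitochondrial enzymes degrade it. Besides the fast GABA-A channels it acts on GABA-B receptors, slow G protein-coupled receptors made of 1 subunit of each kind, which restrain transmitter release and open potassium channels.

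No member passed the test in any comparison of genotypes. The clearest feature of the members was a spread between mice, and it ran in opposite directions. In 1 zQ175 mouse (replicate 1) Gad1, Gad2 and Slc32a1 were at their lowest of all 18 libraries, while Slc6a11, Gabbr1 and Gabbr2 were at their highest. Levels of Gabbr2 and Slc6a11 correlated across all 18 mice with the summed level of thalamic neuron markers in the same library. Gabbr2 also correlated with the summed level of cortical excitatory neuron markers.

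The libraries held 13612381 to 22702547 counted reads (median 18005044). Csnk2a2 lay between 14.7 and 19.9 CPM (counts per 1000000 reads, scaled by TMM) in the 8 mice lacking 1 copy and between 29.4 and 37.5 CPM in the other 10, so the ranges were separate in the way the labels have it. Striatal identity was checked with 10 markers of projection neurons, whose summed level was 1477 to 6495 CPM, none of them at 0. The 6 thalamic markers (Slc17a6, Tcf7l2, Prkcd, Synpo2, Ramp3 and Lef1) summed to 1007 CPM in zQ175 replicate 1 and to 47.8 to 488 CPM elsewhere. The same mouse had the lowest projection-neuron sum (1477 CPM). The 7 cortical excitatory markers summed to 339 CPM in zQ175 replicate 5 and to at most 177 CPM elsewhere. Choroid plexus markers summed to 975 to 3083 CPM in 4 libraries (WT replicates 1 and 3, CK2a'(+/-) replicate 1 and zQ175:CK2a'(+/-) replicate 2) and to at most 21.6 CPM in the rest, and their part in the values was not tested. The main differences that involve zQ175 mice are therefore also given without replicate 1 or without replicates 1 and 5, the latter a choice made after the data were seen. In bulk tissue, fewer cells of a type and less RNA per cell cannot be told apart.

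Scaled by the length of the gene model, the members fell into a high and a low tier in WT mice. Gabbr1 led with a median of 73.8 CPM per kilobase, followed by Gad2 (67.8), Gad1 (58.4), Slc32a1 (52.0) and Abat (44.9). Gabbr2 (median 18.5, range 14.1 to 23.7), Slc6a11 (range 14.9 to 25.1) and Aldh5a1 (median 13.7) formed the low tier. The ranges of the 5 WT mice overlapped between each pair of neighbours in this order except at 2 places. The lowest Abat value (41.3) stood clear of the highest Gabbr2 value (23.7), and the lowest Slc6a11 value (14.9) stood just above the highest Aldh5a1 value (14.5). The receptor subunits, which work as a pair, thus sat in different tiers, with 3.23 to 5.37 times more Gabbr1 than Gabbr2 per length in WT mice. The decarboxylases had a Gad1 to Gad2 ratio of 0.668 to 1.06 (median 0.862) in WT mice. Lengths here are merged exons of each gene model, and the lengths of the transcripts expressed were not measured.

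**Figure D1:**
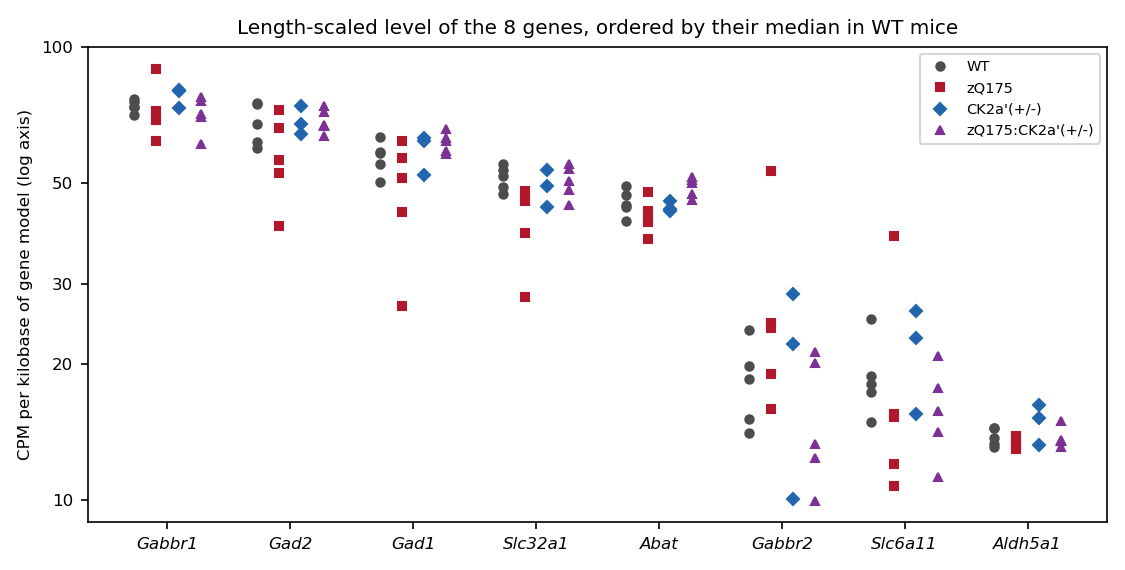
CPM per kilobase of gene model on a log axis for the 8 genes, ordered by their median in WT mice, with 1 point per mouse and a column of points per genotype. Abat and the 4 genes above it lie apart from the 3 genes below it in WT mice, and the zQ175 points spread widest for Gad1, Slc6a11 and Gabbr2.

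The start regions of these genes are shown because the members split into a set that was lowest and a set that was highest in the same mouse. RefSeq windows of GRCm38.p6, from 250 bases before to 50 after the gene start, were found for 7 of the 8 members, all except Abat. The 90 bases shown end just before the RefSeq start or the first counted exon base in the window, whichever lies further upstream, and are read 5′ to 3′ on the gene's strand. For Gad1 the counted gene model also has an exon upstream of this RefSeq start. They lie at chr2:70561952-70562041 (+) for Gad1, chr2:22622115-22622204 (+) for Gad2, chr2:158610668-158610757 (+) for Slc32a1, chr6:114131151-114131240 (+) for Slc6a11, chr17:37045876-37045965 (+) for Gabbr1 and chr4:46991874-46991963 (-) for Gabbr2. Capitals mark matches on either strand to the GC box GGGCGG or the TATA box TATAAA.
Gad1: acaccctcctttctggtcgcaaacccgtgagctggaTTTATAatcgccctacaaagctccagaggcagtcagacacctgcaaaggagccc
Gad2: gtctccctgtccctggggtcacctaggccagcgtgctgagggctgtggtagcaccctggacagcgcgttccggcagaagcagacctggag
Slc32a1: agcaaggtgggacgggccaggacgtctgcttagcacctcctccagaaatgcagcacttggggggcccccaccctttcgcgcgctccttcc
Slc6a11: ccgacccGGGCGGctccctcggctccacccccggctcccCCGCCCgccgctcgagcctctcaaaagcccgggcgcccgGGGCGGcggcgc
Gabbr1: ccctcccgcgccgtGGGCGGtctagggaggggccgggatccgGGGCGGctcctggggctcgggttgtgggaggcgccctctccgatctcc
Gabbr2: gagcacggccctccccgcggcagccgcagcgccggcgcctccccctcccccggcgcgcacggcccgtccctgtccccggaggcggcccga

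Over the whole windows, the GC box occurred 4 times for Slc6a11, 3 times for Gabbr1, 2 times for Gabbr2 and once for Gad1. It was not matched for Gad2, Slc32a1 or Aldh5a1. Of all 32851 windows, 35.7% held at least 1 match, and 13.6% held the TATA box that Gad1 carries 141 bases before its start. The CCAAT box, present in 37.4% of all windows, matched in those of Gad2 and Aldh5a1. The 250 bases before the start were 80.8% G or C for Gabbr2, 71.2% for Slc6a11, 66.0% for Gabbr1, 64.0% for Gad2, 62.4% for Slc32a1, 58.0% for Gad1 and 57.2% for Aldh5a1. The median over all windows was 52.4%. These matches describe letters and were not tested for binding or effect.

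The synthesis genes come first. Gad1 (ENSMUSG00000070880, chr2:70553072-70602014, + strand) encodes the decarboxylase that makes most basal GABA. Its level was 385, 447, 446, 484 and 421 CPM in WT replicates 1 to 5 and 205, 434, 393, 474 and 331 CPM in zQ175 replicates 1 to 5. It was 480, 474 and 400 CPM in CK2a'(+/-) mice, and 474, 482, 502, 451 and 444 CPM in zQ175:CK2a'(+/-) mice. All groups overlapped except zQ175 replicates 1 and 5, which were below every other library. The fitted log2 difference between zQ175 and WT was -0.25 (SE 0.14, 95% interval -0.55 to 0.049, adjusted p = 0.460 in edgeR's quasi-likelihood test). Without zQ175 replicate 1 it was -0.099, and without replicates 1 and 5 it was -0.0097 (SE 0.092).

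Gad2 (ENSMUSG00000026787, chr2:22622205-22693874, + strand) encodes the decarboxylase bound to synaptic vesicles. WT mice had 443, 439, 398, 351 and 363 CPM and zQ175 mice 237, 428, 331, 389 and 310 CPM. CK2a'(+/-) mice had 436, 397 and 378 CPM, and zQ175:CK2a'(+/-) mice 421, 395, 435, 394 and 375 CPM. As for Gad1, replicates 1 and 5 of zQ175 were the lowest of the 18 libraries, and zQ175 replicate 3 was also below all mice of the other genotypes. The zQ175 difference from WT was -0.24 (SE 0.12, interval -0.48 to 0.0051, edgeR adjusted p = 0.371), and -0.059 without replicates 1 and 5.

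Slc32a1 (ENSMUSG00000037771, chr2:158610767-158615748, + strand) encodes the transporter that fills vesicles with GABA and glycine. The WT values were 145, 154, 138, 132 and 150 CPM, and the zQ175 values 78.6, 128, 135, 129 and 109 CPM. CK2a'(+/-) mice had 138, 124 and 150 CPM, and zQ175:CK2a'(+/-) mice 154, 126, 136, 151 and 142 CPM. In zQ175 mice 4 of 5 values lay below the WT range and replicate 3 lay inside it. The zQ175 difference of -0.32 (SE 0.11, interval -0.55 to -0.086) had the smallest p of the 8 members in that comparison (unadjusted p = 0.00935, adjusted p = 0.195 in edgeR). DESeq2 gave an adjusted p of 0.113, also above the threshold of 0.1. It was -0.20 without replicate 1 and -0.14 without replicates 1 and 5 (unadjusted p = 0.107 in edgeR). Of its exon bases 24.9% overlap Gm14205 on the opposite strand, which had 4 to 39 reads per library.

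Slc6a11 (ENSMUSG00000030307, chr6:114131241-114249952, + strand) encodes a plasma membrane GABA transporter found mainly on astrocytes. Its level was 90.9, 75.2, 127, 87.5 and 94.9 CPM in WT mice and 194, 60.7, 76.9, 78.4 and 54.3 CPM in zQ175 mice. It was 115, 132 and 78.4 CPM in CK2a'(+/-) mice and 79.6, 71.5, 105, 56.8 and 89.5 CPM in zQ175:CK2a'(+/-) mice. The zQ175 group held both the highest value of all 18 libraries (replicate 1) and the lowest (replicate 5). The difference from WT was -0.031 (SE 0.26, interval -0.57 to 0.51, edgeR adjusted p = 0.973) with all mice and -0.49 (SE 0.18, unadjusted p = 0.0114, adjusted p = 0.244) without replicate 1. Without replicates 1 and 5 it was -0.40 (SE 0.19, unadjusted p = 0.0477, adjusted p = 0.483 in edgeR), and without replicate 5 alone it was 0.11. Summed astrocyte markers spanned 2766 to 3372 CPM in zQ175 mice and 2851 to 4153 CPM in WT mice, which overlap.

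Abat and Aldh5a1 act one after the other in mitochondria. Abat (ENSMUSG00000057880, chr16:8513429-8621568, + strand) encodes GABA transaminase. WT mice had 320, 383, 344, 366 and 348 CPM and zQ175 mice 326, 336, 319, 371 and 292 CPM. CK2a'(+/-) mice had 336, 341 and 355 CPM, and zQ175:CK2a'(+/-) mice 395, 368, 389, 400 and 356 CPM. The zQ175:CK2a'(+/-) mice were the highest group, and 4 of the 5 zQ175 values lay below its range. The WT range of 320 to 383 CPM overlapped both of these groups. The zQ175 difference of Abat from WT was -0.098 (SE 0.071, interval -0.25 to 0.049, edgeR adjusted p = 0.580), and -0.041 without replicates 1 and 5. Aldh5a1 (ENSMUSG00000035936, chr13:24907579-24937661, - strand) encodes succinic semialdehyde dehydrogenase, which completes the breakdown. It was the steadiest member, from 73.2 CPM in zQ175 replicate 5 to 91.6 CPM in CK2a'(+/-) replicate 2. Its zQ175 difference from WT was -0.051 (SE 0.067, interval -0.19 to 0.088, edgeR adjusted p = 0.790), and -0.046 without replicates 1 and 5. Its exons share 14.1% of their bases with 4932702P03Rik and 3.595% with another gene, both on the opposite strand and with at most 148 reads in a library.

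Gabbr1 (ENSMUSG00000024462, chr17:37045966-37075067, + strand) encodes the subunit that binds GABA. Its level was 573, 587, 595, 549 and 573 CPM in WT mice and 693, 560, 535, 535 and 482 CPM in zQ175 mice. It was 568.4, 625.2 and 620.6 CPM in CK2a'(+/-) mice and 554, 475, 543, 601 and 589 CPM in zQ175:CK2a'(+/-) mice. WT mice were tight (coefficient of variation 3.07%) and sat inside the range of every other group of 5. The zQ175 difference from WT was -0.036 (SE 0.085, interval -0.21 to 0.14, edgeR adjusted p = 0.893), and -0.082 without replicates 1 and 5.

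Gabbr2 (ENSMUSG00000039809, chr4:46662305-46991873, - strand) encodes the subunit that brings the receptor to the surface and couples it to G proteins. WT mice had 101, 94.1, 159, 124 and 132 CPM, and zQ175 mice 355, 106, 164, 127 and 161 CPM. CK2a'(+/-) mice had 148, 191 and 67.3 CPM, and zQ175:CK2a'(+/-) mice 88.9, 82.8, 134, 66.6 and 142 CPM. Apart from replicate 1 of zQ175, the groups overlapped broadly, and across all mice the highest value was 5.34 times the lowest. Gabbr2 was higher in zQ175 than in WT mice by 0.58 (SE 0.29, interval -0.021 to 1.19, edgeR adjusted p = 0.378), and by 0.12 (SE 0.27) without replicates 1 and 5.

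**Figure D2:**
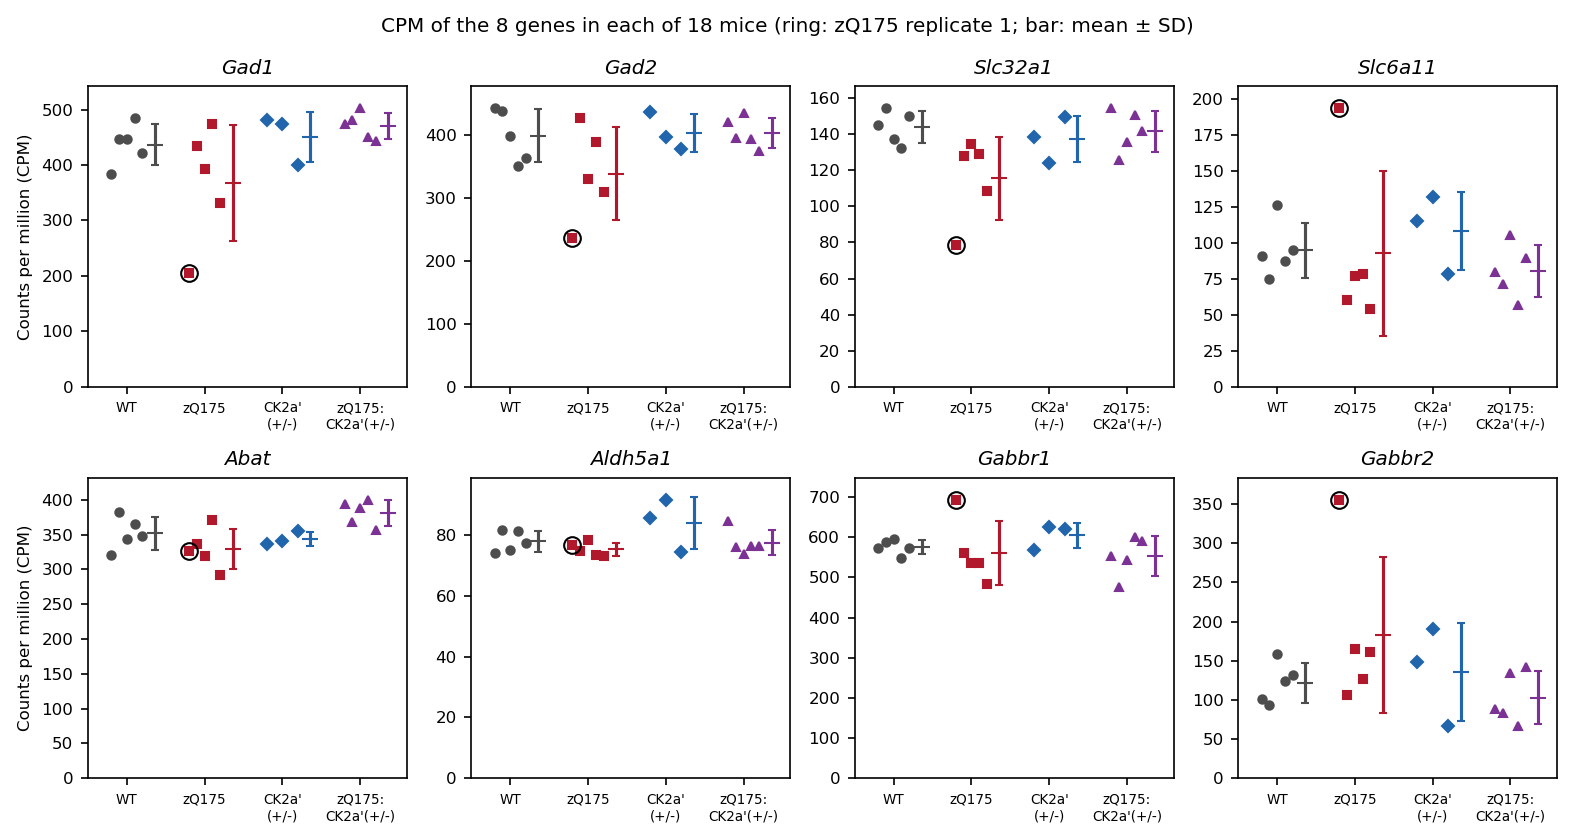
CPM on a linear axis from 0 for each of the 8 genes in 18 mice, in replicate order within each genotype, with the group mean and SD beside the points and zQ175 replicate 1 ringed. The ringed mouse is the lowest of all for Gad1 (205 CPM), Gad2 (237 CPM) and Slc32a1 (78.6 CPM) and the highest for Slc6a11 (194 CPM), Gabbr1 (693 CPM) and Gabbr2 (355 CPM).

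The spread within genotypes set the members apart from each other. In WT mice the coefficient of variation was 21.2% for Gabbr2 and 20.1% for Slc6a11, and 3.07% to 10.51% for the other 6. The median over the 2226 genes expressed at or above the lowest member was 9.68%. In zQ175 mice it reached 61.8% for Slc6a11, 54.5% for Gabbr2, 28.6% for Gad1, 21.8% for Gad2 and 19.9% for Slc32a1, against a median of 9.31%. Aldh5a1 stayed at 2.96% there. Without replicate 1 the values were 17.7% for Slc6a11 and 20.03% for Gabbr2, below their WT values, and 15.0% for Gad1, 14.8% for Gad2 and 9.13% for Slc32a1, against a median of 7.27%. In zQ175:CK2a'(+/-) mice Gad1 and Gad2 varied by 5.06% and 5.92%, less than the 7.03% of the median gene, while Gabbr2 varied by 32.4%.

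The effect of the HD allele was read from zQ175 against WT mice. In this comparison 0 of 8 members passed a false discovery rate (FDR) of 0.1, when 1.1% of the 20914 genes tested did. At an unadjusted p under 0.05 there was 1 member (Slc32a1), against 13.9% of all genes. This number was 4 without zQ175 replicate 2, 5 without zQ175 replicate 4, 4 with no filter on low counts and 1 or 2 in each other fit. DESeq2 also called 0 members. Fitted differences were below 0 for 7 of 8 members, and their median was -0.074, against 0.0042 over all genes. In this comparison the 10 markers of projection neurons had differences below 0 in 10 of 10 cases, and 3 passed (median -0.67). The 8 markers of GABAergic interneurons, cells that also use Gad1, Gad2 and Slc32a1, summed to 164.5 to 252.6 CPM in zQ175 and 253.4 to 321.9 CPM in WT mice. These ranges were narrowly apart. Differences of these markers were below 0 in 6 of 8 cases and 0 passed (median -0.33). Cortical markers were above 0 in 6 of 6 cases tested and 1 passed (median 1.44), and thalamic markers were above 0 in 5 of 6 and 0 passed (median 0.64). Oligodendrocyte markers were below 0 in 5 of 5 cases and 3 passed (median -0.58), and cholinergic markers in 3 of 3, of which 0 passed in edgeR and 2 in DESeq2 (median -0.65). Choroid plexus markers, high in 2 WT mice and no zQ175 mouse, were below 0 in 5 of 5 with 0 past the test in edgeR and 1 in DESeq2 (median -4.03). The part of these cells in the members' values was not tested.

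The same question was asked in mice that carry the HD allele and lack 1 Csnk2a2 copy. In zQ175:CK2a'(+/-) against WT mice 0 of 8 members passed in edgeR or DESeq2, with 0.0143% of genes called in edgeR. No member reached an unadjusted p under 0.05, against 9.13% of genes. The widest interval was that of Gabbr2 (-0.24, from -0.85 to 0.36). The narrowest was that of Aldh5a1 (-0.0085, from -0.15 to 0.13), and for Slc32a1 it ran from -0.25 to 0.21. Abat was nearest to the threshold at 0.12 (SE 0.071, unadjusted p = 0.118).

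Lower CK2a' in the presence of the HD allele was tested by zQ175 against zQ175:CK2a'(+/-) mice, which shares its zQ175 libraries with the first comparison. Here 0 of 8 members passed in edgeR or DESeq2, as did 0.0143% of genes in edgeR. At an unadjusted p under 0.05 there were 5 members, against 6.27% of genes. Gad1 (-0.36, SE 0.14), Gad2 (-0.25, SE 0.12), Slc32a1 (-0.29, SE 0.11) and Abat (-0.21, SE 0.071) were lower in zQ175 mice and Gabbr2 was higher (0.83, SE 0.29). The smallest adjusted p among them was 0.597, for Abat. The median over the 8 members was -0.13, against 0.0051 over all genes. Without zQ175 replicate 1 the number was 3 (Gad1, Slc32a1 and Abat), without replicate 5 it was also 3, and without both it was 0.

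Of the markers of other cells 0 passed the test between the same mice in edgeR, and their fitted differences were as follows. Cortical markers were above 0 in 6 of 6 cases (median 0.96, 2 passed in DESeq2), as were thalamic markers in 6 of 6 (median 0.83). Oligodendrocyte markers were below 0 in 5 of 5 (median -0.28), microglial markers in 5 of 5 (median -0.22), cholinergic markers in 3 of 3 (median -0.54, 1 passed in DESeq2), choroid plexus markers in 5 of 5 (median -3.89, 1 passed in DESeq2) and projection-neuron markers in 8 of 10 (median -0.22). Markers of GABAergic interneurons were below 0 in 6 of 8 (median -0.084) and those of astrocytes in 6 of 8 (median -0.034). Endothelial markers were below 0 in 2 of 4 (median -0.011) and oligodendrocyte precursor markers in 1 of 2 (median 0.022). The part of all these cells in the members' values between these mice was not tested.

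Of the 5 members with an unadjusted p under 0.05, Abat moved least when both mice were left out. It was -0.21 without replicate 1 and -0.16 (SE 0.078, unadjusted p = 0.0571) without replicates 1 and 5. The difference of Gabbr2 went to 0.36 (SE 0.27) and that of Gad1 to -0.12 (SE 0.092) when both mice were left out. Slc6a11 turned from 0.21 (SE 0.26) to -0.16 (SE 0.19), so its direction rested on replicate 1.

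**Figure D3:**
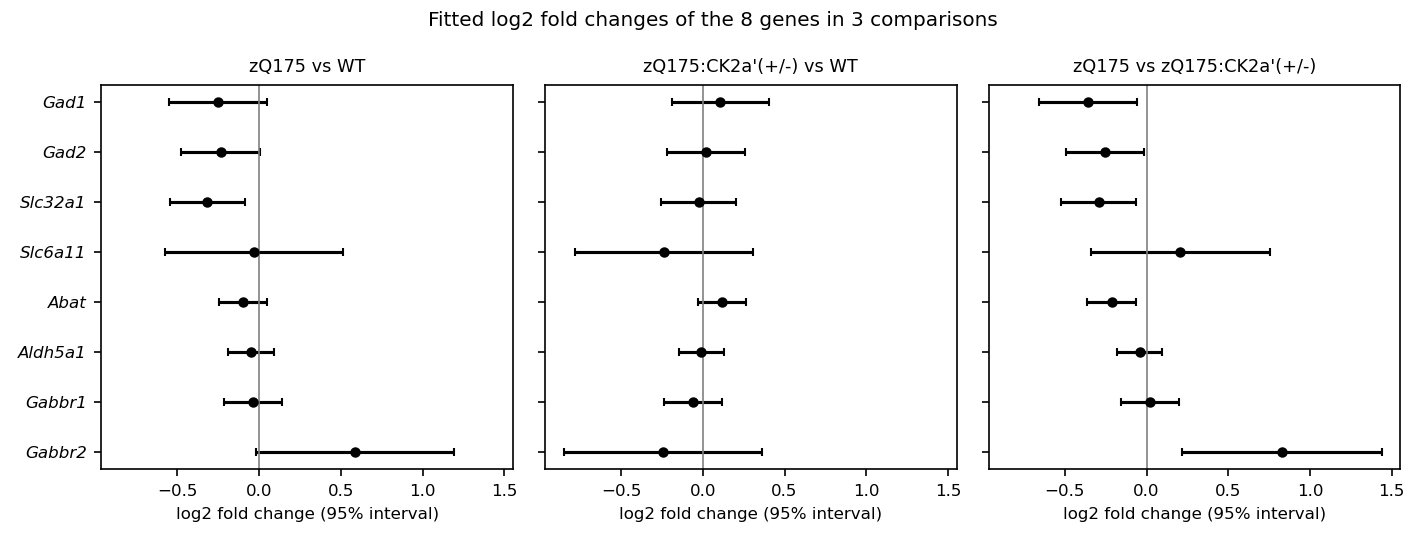
Fitted log2 fold change (point) with its 95% interval (bar) for the 8 genes in zQ175 against WT, zQ175:CK2a'(+/-) against WT, and zQ175 against zQ175:CK2a'(+/-) mice. The middle panel has every interval across 0, and the right panel has 5 intervals clear of 0, none of which passed after adjustment.

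**Figure D4:**
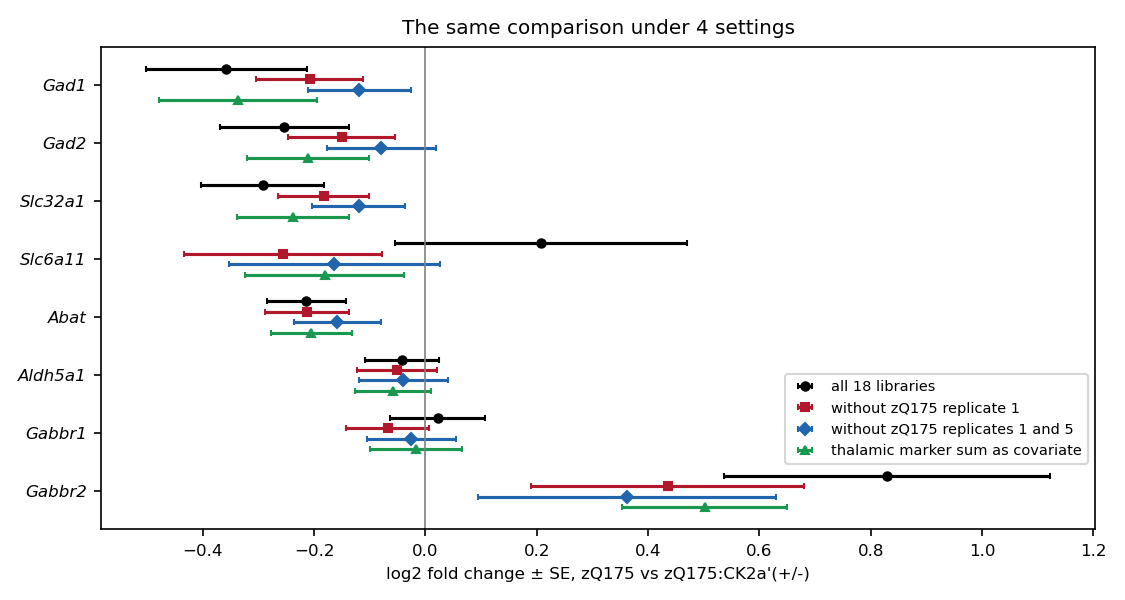
Log2 fold change of the 8 genes in zQ175 against zQ175:CK2a'(+/-) mice (point, with the SE as bar) with all 18 libraries, without zQ175 replicate 1, without zQ175 replicates 1 and 5, and with the thalamic marker sum as a covariate. Gad1, Gad2, Slc32a1 and Gabbr2 lie nearer 0 without both replicates, Slc6a11 changes side, and Abat moves from -0.21 to -0.16.

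Loss of 1 Csnk2a2 copy on its own was read from CK2a'(+/-) against WT mice, with 3 mice against 5. Again 0 of 8 members passed in edgeR or DESeq2 (0.0143% of genes in edgeR), and 0 had an unadjusted p under 0.05 (4.48% of genes), or 1 without CK2a'(+/-) replicate 3. Differences ran from -0.068 for Slc32a1 (interval -0.33 to 0.20) to 0.19 for Slc6a11 (interval -0.43 to 0.82). In zQ175:CK2a'(+/-) against CK2a'(+/-) mice 0 of 8 passed in edgeR or DESeq2 (0.593% of genes in edgeR), and 0 had an unadjusted p under 0.05 (9.19% of genes). The last number was 2 without CK2a'(+/-) replicate 3, 2 with only the groups compared, and 1 with no filter on low counts, without zQ175 replicate 1 or without zQ175 replicates 1 and 5. Slc6a11 had the lowest value there (-0.43, interval -1.05 to 0.19).

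Whether the HD allele acted differently when 1 Csnk2a2 copy was missing was tested as an interaction. It passed for 0 of 8 members in edgeR or DESeq2 (0.00478% of genes in edgeR), and 3 members had an unadjusted p under 0.05 (5.39% of genes). In edgeR these were Abat (0.25, SE 0.11, unadjusted p = 0.0326), Gabbr2 (-0.98, SE 0.44, unadjusted p = 0.0372) and Slc32a1 (0.36, SE 0.17, unadjusted p = 0.0453), each with an adjusted p of 0.916. The number was 0 without zQ175 replicates 1 and 5. It was also 0 without WT replicate 2, without CK2a'(+/-) replicate 1 or 2, without zQ175:CK2a'(+/-) replicate 4 and with Xist as a covariate.

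Ratios within a library do not depend on the scaling between libraries. Gad1 to Gad2, Gabbr1 to Gabbr2 and Slc32a1 to Gad1 were compared per length in 3 comparisons of 5 against 5 mice, with 9 exact two-sided permutation tests in all. The Gabbr1 to Gabbr2 ratio was 3.23 to 5.37 in WT, 1.68 to 4.55 in zQ175, 2.82 to 7.94 in CK2a'(+/-) and 3.49 to 7.77 in zQ175:CK2a'(+/-) mice. The log2 ratio in zQ175 minus that in zQ175:CK2a'(+/-) mice was -0.73 (exact permutation p = 0.0556, adjusted over 9 tests 0.429), and -0.54 without zQ175 replicate 1. Against WT mice the zQ175 value was -0.52 (exact permutation p = 0.0952, adjusted 0.429), and -0.32 without zQ175 replicate 1. The Gad1 to Gad2 ratio was 0.668 to 1.06 in WT, 0.667 to 0.936 in zQ175, 0.814 to 0.919 in CK2a'(+/-) and 0.865 to 0.938 in zQ175:CK2a'(+/-) mice. None of the 9 tests passed, and the lowest adjusted p was 0.429.

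Gabbr2 and Slc6a11 varied with markers of the neighbouring thalamus, and Gabbr2 also with cortical markers. Over the 18 libraries, log2 CPM of Gabbr2 correlated with the log2 thalamic marker sum (Pearson r = 0.855, permutation p = 1e-05, the smallest that 100000 resamples give, Spearman rho = 0.806, permutation p = 0.0001). For Slc6a11 r was 0.823 (permutation p = 4e-05) and rho 0.725 (permutation p = 0.001). Adjusted over 24 relations of the 8 members with 3 marker sums, p was 0.00024 and 0.00048 for r, and 0.0012 and 0.008 for rho. Without the 2 libraries farthest from the median sum (zQ175 replicate 1 and zQ175:CK2a'(+/-) replicate 4), r was 0.764 for Gabbr2 and 0.710 for Slc6a11. After the genotype means were subtracted it was 0.879 and 0.860. Of all genes tested, 0.598% had an r at least as high as Gabbr2 and 0.818% one at least as high as Slc6a11.

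Gad1, Gad2 and Slc32a1 had no such relation to thalamic markers once the 2 farthest libraries were left out (r = 0.398, -0.0481 and -0.0729), and none of the 3 passed with all 18 libraries (lowest adjusted permutation p = 0.067, for Slc32a1). Gad2 instead followed the summed markers of projection neurons (r = 0.699, adjusted permutation p = 0.00786, rho = 0.709, adjusted permutation p = 0.00852, r = 0.808 without the 2 farthest). That r was 0.710 within genotypes and 0.513 without zQ175 replicate 1. Against the cortical marker sum Gad2 had r = -0.664 (adjusted permutation p = 0.0222, rho = -0.626, adjusted permutation p = 0.0256, r = -0.727 without the 2 farthest). The value for Slc32a1 was r = -0.682 (adjusted permutation p = 0.0222, rho = -0.674, adjusted permutation p = 0.0138, r = -0.674 without the 2 farthest). Gabbr2 had r = 0.744 with the cortical sum (adjusted permutation p = 0.00568, rho = 0.820, adjusted permutation p = 0.0012, r = 0.864 without the 2 farthest). After genotype means were subtracted, r with the cortical sum was -0.462 for Gad2, -0.449 for Slc32a1 and 0.668 for Gabbr2. Marker sums of other cells thus varied together with member levels, and their part in any difference between genotypes was not tested.

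**Figure D5:**
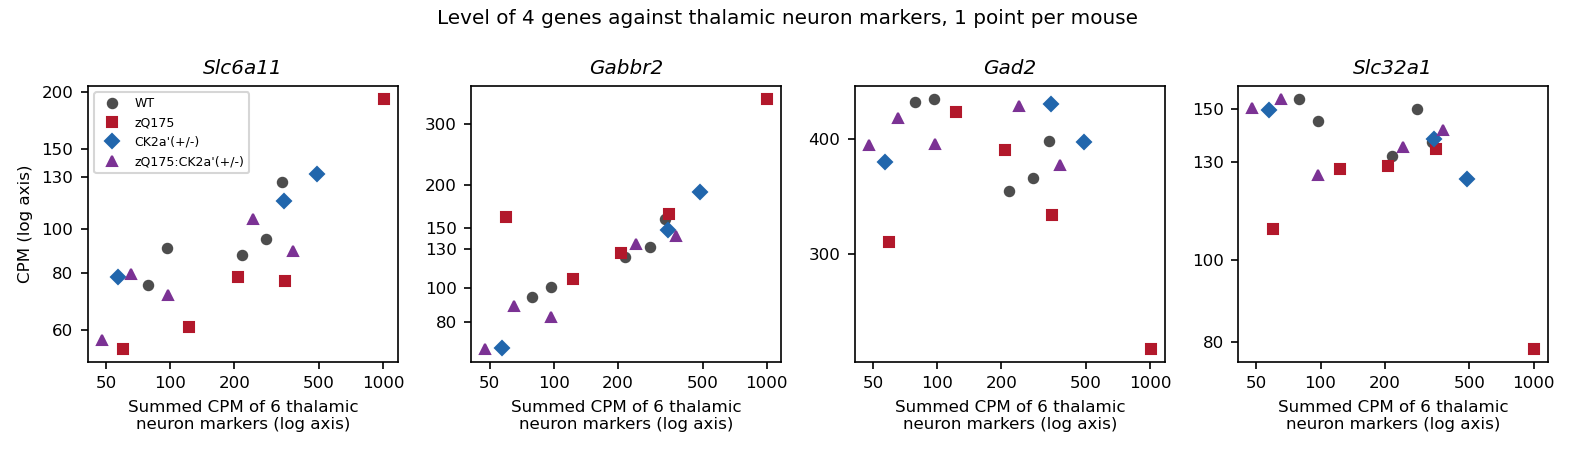
CPM of Slc6a11, Gabbr2, Gad2 and Slc32a1 against the summed CPM of 6 thalamic neuron markers, both on log axes, with 1 point per mouse and a symbol per genotype. Slc6a11 and Gabbr2 climb with the marker sum in mice of all 4 genotypes, with zQ175 replicate 1 at the top right (1007 CPM of markers) and zQ175 replicate 5 above the other Gabbr2 points at a low sum.

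With the thalamic sum as a covariate, an alternative chosen after the data were seen, the zQ175 difference of Gabbr2 was 0.40 from WT (SE 0.14, unadjusted p = 0.0105, adjusted p = 0.167 in edgeR). It was 0.50 from zQ175:CK2a'(+/-) (SE 0.15, unadjusted p = 0.00256, adjusted p = 0.330 in edgeR). The SEs without the covariate were 0.29 in both comparisons, and the difference did not pass in either fit. For Slc6a11 the covariate gave -0.27 from WT (SE 0.14, unadjusted p = 0.0630 in edgeR).

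Correlations between members changed with a few libraries. Gad1 and Gad2 had r = 0.840 over 18 mice (permutation p = 0.00099, adjusted over 28 pairs 0.0105), but rho = 0.395 (permutation p = 0.107, adjusted 0.375) and r = 0.252 without the 2 libraries farthest on the Gad1 axis. Gad2 and Slc32a1 had r = 0.801 (permutation p = 0.00199), rho = 0.422 (permutation p = 0.0817) and r = 0.146 without the 2 farthest. Both relations thus rested on those libraries. Slc32a1 and Gabbr2 had r = -0.761 (adjusted permutation p = 0.0105), rho = -0.587 (adjusted permutation p = 0.108) and r = -0.486 without the 2 farthest. The receptor subunits Gabbr1 and Gabbr2 had r = 0.307 (permutation p = 0.212) and rho = 0.0795 (permutation p = 0.755). No pair of members had an adjusted permutation p under 0.05 for rho.

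The genes most like each member over the 18 libraries were sought among 10206 genes with a mean log2 CPM of 3 or more, as a description with no test. For Gabbr2 they were Dscam (r = 0.97), Slc8a1 (0.95) and Hdac9 (0.95), and for Slc6a11 they were Csdc2 (0.94), Epb41l3 (0.93) and Atp1b2 (0.92). These values changed little without zQ175 replicate 1, to 0.86 or more for all 6. For Gad1 the nearest were Rapgef4, Six3 and Isl1 (0.85 to 0.89), for Gad2 Six3 and Grik3 (0.86 to 0.90) and for Slc32a1 Tyro3, Ecel1 and Galc (0.87 to 0.89). Without zQ175 replicate 1 these values ran from 0.55 to 0.74. Six3 and Isl1 encode homeodomain transcription factors. Abat was nearest to Pld5, Mthfd1 and Ndufaf3 (0.80 to 0.84), Gabbr1 to Dzank1, Rab6b and Hlf (0.79 to 0.82), and Aldh5a1 to 9330102E08Rik, Capn2 and Farp1 (0.69 to 0.78).

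The wider GABA pathway was followed through 46 more genes listed by role, of which 41 had enough reads to be tested. Of the uptake transporters 0 passed in any comparison. Slc6a13 was at 2.25 CPM or less in every mouse, and its lowest difference was -1.33 (SE 0.42, edgeR adjusted p = 0.346) in zQ175:CK2a'(+/-) against WT mice. Among 11 genes that supply glutamine and glutamate 0 passed in edgeR. Glul, the glutamine synthetase of astrocytes, had -0.31 (SE 0.11, adjusted p = 0.196 in edgeR) in zQ175 against WT mice. Its difference was -0.44 (SE 0.13, adjusted p = 0.161 in edgeR, and 0.0607 in DESeq2) in zQ175:CK2a'(+/-) against CK2a'(+/-) mice. Of 6 further enzymes of GABA and its cofactor 0 passed in edgeR. Pdxk, the kinase that makes the cofactor of the decarboxylases, had -0.33 (SE 0.11, adjusted p = 0.166, and 0.0930 in DESeq2) in zQ175 against WT mice.

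Of 7 GABA-B partners 0 passed in any comparison in edgeR or DESeq2. They are the auxiliary subunits Kctd8, Kctd12 and Kctd16 and the potassium channel subunits Kcnj3, Kcnj5, Kcnj6 and Kcnj9. Kcnj6 was at 7.78 to 35.9 CPM in zQ175, 6.35 to 11.2 in WT and 2.02 to 10.7 in zQ175:CK2a'(+/-) mice. Its difference was 1.10 from WT (SE 0.38, edgeR adjusted p = 0.190) and 1.48 from zQ175:CK2a'(+/-) (SE 0.39, edgeR adjusted p = 0.438). Without zQ175 replicates 1 and 5 it was 0.31 and 0.68. It passed when the filter on low counts was dropped, as given with the other settings. Kctd12 had 0.12 (SE 0.13) and Kctd16 0.20 (SE 0.14) in zQ175 against WT mice.

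Among 15 GABA-A subunits tested, Gabrd alone passed in edgeR. It encodes the delta subunit of receptors outside synapses. Its level was 33.1 to 55.8 CPM in WT, 28.6 to 32.9 in zQ175, 53.3 to 69.5 in CK2a'(+/-) and 25.6 to 32.7 in zQ175:CK2a'(+/-) mice. Mice with the HD allele were thus below all mice without it. It fell by 0.64 in zQ175 against WT mice (SE 0.12, adjusted p = 0.0469), by 0.72 in zQ175:CK2a'(+/-) against WT mice (SE 0.12, adjusted p = 0.0752) and by 1.03 in zQ175:CK2a'(+/-) against CK2a'(+/-) mice (SE 0.14, adjusted p = 0.00194, all from edgeR). DESeq2 also called these drops, in the same order at adjusted p = 0.00080, 0.000229 and 2.02e-08. The difference between zQ175 and zQ175:CK2a'(+/-) mice was 0.075 (SE 0.12, adjusted p = 0.959 in edgeR). The first edgeR call was lost without zQ175 replicates 1 and 5 (-0.66, adjusted p = 0.245) and in 3 of 18 edgeR fits that left out 1 library, and the second in 9 of 18. With only the groups compared in the fit, neither passed (adjusted p = 0.145 and 0.160 in edgeR). The call against CK2a'(+/-) mice held in all 18 (highest adjusted p = 0.0321 in edgeR). Markers of projection neurons were below 0 in 10 of 10 cases in zQ175:CK2a'(+/-) against CK2a'(+/-) mice, with 2 past the test in edgeR (median -0.79), as was 1 of 5 oligodendrocyte markers, lower in the former. Against WT mice the projection-neuron markers were also below 0 in 10 of 10, with 0 past the test in edgeR or DESeq2 (median -0.47). The part of these cells in the Gabrd values was not tested. DESeq2 also called Gabra4 in zQ175:CK2a'(+/-) against CK2a'(+/-) mice (adjusted p = 0.0496, and 0.132 in edgeR).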

How the data were processed

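RNA from bulk striatum of 18 mice was sequenced, and the authors deposited whole-number read counts per gene, with merged exon lengths. By the methods and labels, Trimmomatic, HISAT2 2.1.0 on GRCm38 and Subread 1.6.2 were used, and duplicated mappings and alignments of low mapping quality were removed before counting. The kit keeps strand, but the strand setting of the counting is not given in the sources used here, so overlapping genes on opposite strands may share reads. Libraries held 13612381 to 22702547 counts.

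Counts were analysed in edgeR 4.0.16 (R 4.3.3): TMM scaling, the default filter (20914 genes), 1 quasi-likelihood fit over the 18 mice by genotype, and Benjamini-Hochberg adjustment over all genes at FDR 0.1. SEs came from the log2 fold change and F. Log2 CPM used a prior count of 2, and ratios added 0.5 to each count. DESeq2 1.42.0 and other settings were alternatives, and the fits were tested on simulated data. Members and lists were chosen with earlier results of these data known. Named are the members, the 3 genes most like each, listed genes past FDR 0.1, and Slc6a13, Glul, Kctd12, Kctd16, Kcnj6 and Gabrd. Results of some of these genes are not reported here. Pdxk and Gabra4 were named after their values were seen. The methods give both sexes in each genotype, in unequal ratios. Sex per mouse is not in the labels, so Xist served as a covariate only in an alternative. Nothing in the labels pairs mice of the same replicate number. P-values measure the spread between these mice as labelled. Start regions are RefSeq sequences.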

Additional observations from a re-analysis of the deposited data

Results flagged for a closer look

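Each member was checked in each genotype of 5 mice for a sample far from the others by Dixon's test, 24 groups in all, of which chance flags about 1 in 20. In 3 of them a mouse stood apart. Gabbr2 was at 355 CPM in zQ175 replicate 1, against 164 CPM in the next highest zQ175 mouse, and Slc6a11 was at 194 CPM in the same mouse, against 78.4 CPM in the next highest. The thalamic marker sum of that library was 1007 CPM, above the 47.8 to 488 CPM of the others, and its part in these values was not tested. Aldh5a1 was at 84.4 CPM in zQ175:CK2a'(+/-) replicate 1, against 76.5 CPM in the next highest mouse of that group. No interaction of the HD allele with loss of 1 Csnk2a2 copy passed the test for any member.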

How the results depend on the processing

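The count of members called was 0 in all 6 comparisons under each of 28 or 29 other settings per comparison, including DESeq2, other filters and scalings, a replicate block, Xist as a covariate, and leaving out each library. The lowest adjusted p of any member under any of them was 0.113 (Slc32a1, zQ175 against WT, DESeq2). The number of all genes called depends far more on the setting. In zQ175 against WT mice it was 230, and 847 with DESeq2, 451 with no filter, 98 with the replicate block, 51 at FDR 0.05, 0 with only the groups compared, 0 without zQ175 replicates 1 and 5, 576 with the thalamic sum as covariate, and from 0 (without WT replicate 3) to 587 (without WT replicate 2) when 1 library was left out. Over all settings it was 1 to 156 in zQ175:CK2a'(+/-) against WT, 1 to 51 in zQ175 against zQ175:CK2a'(+/-), 0 to 19 in CK2a'(+/-) against WT, 6 to 580 in zQ175:CK2a'(+/-) against CK2a'(+/-) mice and 0 to 15 for the interaction. With only 3 CK2a'(+/-) mice, each member's interval was wider in CK2a'(+/-) against WT than in zQ175 against WT.

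Some differences, none of them called, changed sign under some settings, and the cause was not tested. The largest in size were those of Slc6a11 in the interaction (-0.40 with the settings as reported), Gabbr2 (-0.40) and Kcnj6 (-0.28) in zQ175:CK2a'(+/-) against CK2a'(+/-), and Slc6a11 in zQ175 against zQ175:CK2a'(+/-) (0.21). With the replicate block, Gad2 in CK2a'(+/-) against WT was -0.017, and the block changed no member's call. Mice of the same number did not deviate together (correlations of -0.136 to 0.12, with 2 of 24 pairs over 0.1), so the number was taken as a name only. With the thalamic sum as covariate, Gad2 (-0.0073) and Aldh5a1 (0.00075) changed sign in zQ175:CK2a'(+/-) against WT, Slc6a11 (-0.18) and Gabbr1 (-0.017) in zQ175 against zQ175:CK2a'(+/-), Gabbr2 (-0.043) in CK2a'(+/-) against WT, Gad2 (-0.050) and Slc32a1 (-0.0091) in zQ175:CK2a'(+/-) against CK2a'(+/-), and Slc6a11 (0.10) in the interaction. Without zQ175 replicates 1 and 5, Slc6a11 (-0.16) and Gabbr1 (-0.025) did so in zQ175 against zQ175:CK2a'(+/-). With Xist, Slc6a11 (-0.018), Abat (0.021) and Gabbr2 (-0.27) did in CK2a'(+/-) against WT, and Gad1 (-0.072), Gad2 (-0.049), Slc32a1 (-0.023), Gabbr2 (0.0080) and Kcnj6 (0.15) in zQ175:CK2a'(+/-) against CK2a'(+/-). With no filter, Gad2 there was -0.0019.

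Leaving out 1 library at a time gave ranges across 0 for these differences. In zQ175 against WT they were -0.49 to 0.11 for Slc6a11 and -0.12 to 0.011 for Gabbr1. In zQ175:CK2a'(+/-) against WT they were -0.024 to 0.045 for Gad2, -0.055 to 0.016 for Slc32a1 and -0.042 to 0.0084 for Aldh5a1. In zQ175 against zQ175:CK2a'(+/-) they were -0.26 to 0.34 for Slc6a11 and -0.068 to 0.068 for Gabbr1. In CK2a'(+/-) against WT they were -0.042 to 0.064 for Gad2, -0.13 to 4.0e-05 for Slc32a1, -0.066 to 0.00095 for Abat, -0.18 to 0.48 for Gabbr2 and -0.35 to 0.12 for Kcnj6. In zQ175:CK2a'(+/-) against CK2a'(+/-) they were -0.021 to 0.11 for Gad1, -0.045 to 0.061 for Gad2 and -0.023 to 0.11 for Slc32a1. For the interaction they were -0.59 to 0.063 for Slc6a11 and -0.14 to 0.0018 for Aldh5a1.

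The ratios kept their side of the threshold. In zQ175 against WT, Gad1 to Gad2 ranged from -0.13 to 0.038 and Slc32a1 to Gad1 from -0.10 to 0.024 when 1 library was left out. Levels over total counts moved by less than 1 SD in all 32 cases. For Gabrd, the call against WT was lost in zQ175 without WT replicate 1 or 3 or zQ175 replicate 5 and with only the groups compared (adjusted p 0.145). In zQ175:CK2a'(+/-) mice it was lost with the replicate block (adjusted p 0.218), with only the groups compared (0.160) and without WT replicate 1 or 3, zQ175 replicate 5, CK2a'(+/-) replicate 2 or any 1 of the zQ175:CK2a'(+/-) mice, its value staying between -0.83 and -0.66. Kcnj6 passed with no filter, at 1.10 against WT (adjusted p 0.0499) and 1.47 against zQ175:CK2a'(+/-) (0.0144).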
